A study of Mus musculus with 2 samples.

Results

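In hippocampus of male mice aged 10 days, 224 distal DNase I hypersensitive regions carried no footprint in either of 2 DNase-seq libraries. They were selected on the deposited footprint lists. A member is a region listed for replicate 1 that overlapped a region listed for replicate 2, lay on chromosomes 1 to 19 and was more than 1000 bp from every annotated transcript start. No deposited footprint touched it, or any replicate 2 region overlapping it, in the list of the same library. Of 26224 shared distal regions these were 0.854%. A further 1245 had a footprint in only 1 library and 24755 had footprints in both. All of them were drawn from 53049 and 72347 autosomal regions in the lists of replicates 1 and 2.

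All mice were of the hybrid strain B6CASTF1/J, the first generation of a cross between C57BL/6J and CAST/EiJ. The study had 1 group, the tissue labelled as a layer of hippocampus, with 2 biological replicates. Each came from its own tissue sample described as 3 males, so each library is a pool, and both samples carry the same donor label. The labels give no treatment and no second group. No test between conditions was therefore possible, and the spread between the libraries may be partly technical.

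DNase I cuts DNA most readily where nucleosomes are displaced, as they are at active promoters and enhancers. Within such an open region, a protein bound to its site shields the bases beneath it. A footprint is the resulting short stretch with fewer cuts than its surroundings, and its detection needs enough cuts around it. Distal hypersensitive regions include enhancers, which in developing neurons are bound by basic helix-loop-helix, NFI, MEF2 and AP-1 factors, and insulators bound by CTCF.

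The sequences of 6 members and 1 footprinted region are shown to make the class concrete. They were read from the C57BL/6J reference GRCm38 (mm10), plus strand, and letters of the CAST/EiJ allele are not shown. The first 4 are the highest of all members. Below them stand the highest members that held a NEUROD E-box and an AP-1 site. Capitals mark matches to a searched motif. The Ski, Rfx3 and Zswim6 members held no match to any of the 27 motifs.
Ski member, chr4:155234022-155234144: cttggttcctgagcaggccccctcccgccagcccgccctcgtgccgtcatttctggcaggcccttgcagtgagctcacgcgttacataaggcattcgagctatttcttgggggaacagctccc
Spred1 member, chr2:117120021-117120300: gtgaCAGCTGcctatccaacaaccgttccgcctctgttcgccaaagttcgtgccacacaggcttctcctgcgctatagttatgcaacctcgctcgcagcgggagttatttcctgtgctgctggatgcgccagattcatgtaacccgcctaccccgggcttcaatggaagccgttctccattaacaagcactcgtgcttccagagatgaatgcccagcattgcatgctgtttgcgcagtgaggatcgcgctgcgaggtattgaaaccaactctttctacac
Rfx3 member, chr19:28012261-28012380: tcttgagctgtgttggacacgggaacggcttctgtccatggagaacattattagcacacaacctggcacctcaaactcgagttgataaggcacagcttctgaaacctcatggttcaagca
Zswim6 member, chr13:107891181-107891380: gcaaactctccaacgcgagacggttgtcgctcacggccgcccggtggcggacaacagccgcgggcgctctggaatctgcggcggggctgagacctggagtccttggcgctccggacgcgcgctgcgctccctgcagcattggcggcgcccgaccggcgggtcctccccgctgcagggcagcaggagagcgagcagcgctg
Fam222b intron member, chr11:78152961-78153202: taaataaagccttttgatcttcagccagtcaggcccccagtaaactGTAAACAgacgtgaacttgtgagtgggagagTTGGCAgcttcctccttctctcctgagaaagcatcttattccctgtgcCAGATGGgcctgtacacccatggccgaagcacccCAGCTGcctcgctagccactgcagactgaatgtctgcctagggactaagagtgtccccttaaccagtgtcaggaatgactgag
Ninj2 intron member, chr6:120192321-120192505: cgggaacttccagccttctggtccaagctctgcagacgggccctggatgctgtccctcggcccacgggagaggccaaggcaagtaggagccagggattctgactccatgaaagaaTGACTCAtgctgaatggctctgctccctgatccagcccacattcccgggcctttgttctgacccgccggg
For contrast, a region near Pllp had 2 footprints in each library and heights of 8.75 and 10.9. Footprinted regions had median heights of 1.06 and 1.29, so this region is not typical of them. Here capitals mark the bases under replicate 1 footprints.
Footprinted region near Pllp, chr8:94704061-94704260: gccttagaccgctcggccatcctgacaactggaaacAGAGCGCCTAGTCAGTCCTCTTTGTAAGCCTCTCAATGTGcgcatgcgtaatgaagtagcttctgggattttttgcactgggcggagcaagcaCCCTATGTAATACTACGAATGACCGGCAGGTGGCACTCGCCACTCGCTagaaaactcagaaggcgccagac

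Footprint-free regions were low. The height of a region is a signal value that the authors deposited with it. The sources used here do not give its unit, so levels were compared within a library. In replicate 2, the height, width, per-base values and footprint distance of a region are those of the tallest overlapping row. Median height was 0.446 in replicate 1 and 0.519 in replicate 2 for members, against 1.06 and 1.29 for footprinted regions. The ratio of the medians was 0.412 ± 0.0154 (SD, n = 2 libraries). Regions with a footprint in 1 library lay between, with medians of 0.591 and 0.666, and those with footprints in both had 1.09 and 1.34. Height and footprints come from the same cuts, so this order describes the class and supports nothing further. In such tissue pools, a region open in few nuclei and a region cut rarely in all nuclei cannot be told apart.

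**Figure D1:**
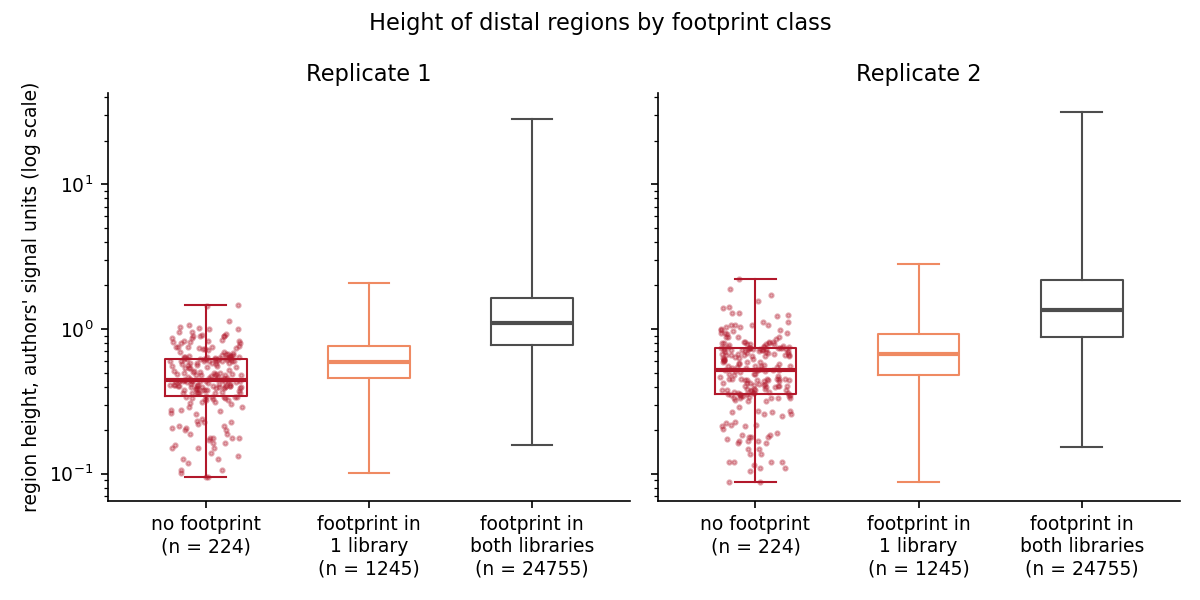
Region height on a log scale in replicates 1 and 2 for distal regions with no footprint, a footprint in 1 library and footprints in both. Boxes show quartiles, whiskers the lowest and highest values and points the 224 members, which reach 1.46 in replicate 1 and 2.21 in replicate 2, while the class with footprints in both libraries reaches 28.4 and 31.5.

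Nearly all members came from the low end of the height scale. With regions divided into 5 equal classes by mean height rank, the lowest height class held 186 of the 224 members. That was 3.55% of its 5245 regions (95% exact binomial interval 3.06 to 4.08). The next classes upward held 26, 9 and 3 members. The highest class held 0 of 5245, which allows a share of up to 0.0572%. These intervals cover counting error only. Most low regions still had a footprint: 4257 of the lowest class carried one in both libraries.

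**Figure D2:**
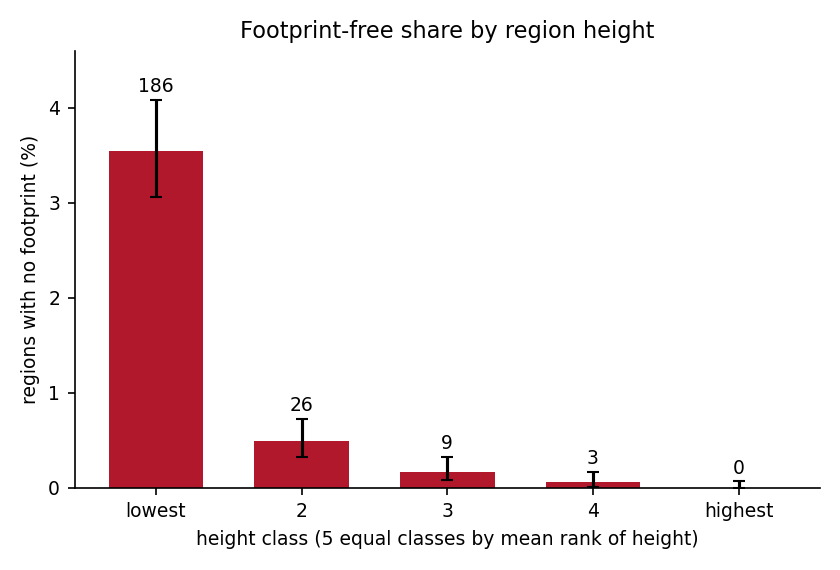
Percentage of shared distal regions without a footprint in each of 5 equal height classes, lowest at the left. Bars show the share, error bars the 95% exact binomial interval and numbers the count of members, which was 186 in the lowest class and 0 in the highest.

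The 3 members of the second highest height class stood near genes for signalling inhibitors and a transcription factor. The highest, 11430 bp from a start of Ski, a corepressor of SMAD signalling, had heights of 1.45 in replicate 1 and 1.90 in replicate 2. A member 1074 bp from a start of Spred1, an inhibitor of Ras signalling, had 1.46 and 1.71. Another lay 1095 bp from a start of Rfx3, a factor for genes of cilia, with 1.04 and 2.21. Thus all 3 exceeded the median of regions with footprints in both libraries in replicate 2, and 2 of them did in replicate 1. The Rfx3 member was 120 bp wide in replicate 1 and overlapped a row of 460 bp in replicate 2, whose nearest footprint lay 9 bp away.

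The other 7 of the 10 highest members lay in varied settings. The Zswim6 member, 1117 bp from a start of that gene, had heights of 1.01 and 1.43, with 73% GC and 27 CpG in 200 bp. The annotation lists Zswim6 as a processed transcript, so its nearest coding gene by start was Smim15, 153066 bp away. A member in the coding exon of Pura, a nucleic acid binding protein of neurons, had 0.893 and 1.28. The member in an intron of Anp32b, which encodes a histone chaperone, had 0.742 and 1.56 and 80.2% GC. Beyond these GC-rich members, 4 lay between genes, with Nuf2, Apobec3, Clvs1 and H3f3a as the nearest coding genes at 59728, 8679, 132779 and 35074 bp. Their heights were 0.867 to 1.13 in replicate 1 and 0.967 to 1.40 in replicate 2.

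Regions just inside the rule had lower median heights than regions just outside it. For 35 members a footprint of the same library lay within 10 bp, measured in replicate 2 from the tallest overlapping row. Their median heights were 0.490 and 0.574. Just outside, 364 regions had exactly 1 footprint over both libraries, with medians of 0.569 and 0.606. Median widths in replicates 1 and 2 were 80 and 109 bp for those 35 members, against 113.5 and 160 bp for the 364 regions. The nearest footprint lay at a median of 273 bp from a member in replicate 1. In replicate 2 the median distance from the tallest overlapping row was 202.5 bp. Allowing footprints up to 50 bp outside the row left 145 members.

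The absence of a footprint was shared between libraries for a minority of regions. Of 1031 shared distal regions without a footprint in replicate 1, 224 also had none in replicate 2 (21.7%, 19.2 to 24.4). Of 25193 with a footprint in replicate 1, 438 had none in replicate 2 (1.74%, 1.58 to 1.91). Read the other way, 224 of 662 regions without a footprint in replicate 2 had none in replicate 1 (33.8%, 30.2 to 37.6), against 807 of 25562 (3.16%, 2.95 to 3.38). So a region with no footprint in one library usually had one in the other. The footprint lists differed in size, with 221089 autosomal footprints in replicate 1 and 338131 in replicate 2. The part of this difference in the 2 shares was not tested. Within the lowest height class the shares were 26.8% against 6.44% in replicate 2 and 38.8% against 10.7% in replicate 1. Height differed between these classes within that class too, and its part in the agreement was not tested.

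By the deposited per-base measure, members had values close to those of regions with a footprint in 1 library. Replicate 2 values were read over the tallest overlapping row of replicate 2, not over the bases of the member. For all 224 members, every base read was listed at a false discovery rate of 0.05 or lower in both libraries. The same held for 25999 of the 26000 footprinted regions in replicate 1 and for all 26000 in replicate 2, so this limit separated no class. At the stricter rate of 0.001, all bases passed in 116 members in replicate 1 (51.8%) and 148 in replicate 2 (66.1%). Those shares were 54.4% and 67.9% for regions with a footprint in 1 library, values inside the members' intervals, and 82.4% and 88.5% for regions with footprints in both. In the lowest height class they were 51.1% and 64.0% for members, against 51.0% and 63.0% with a footprint in 1 library and 62.1% and 71.2% with footprints in both. This measure too rests on the same cuts.

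Members included more short rows than regions with footprints in both libraries, as did regions with a footprint in 1 library. In replicate 1, 83 members were under 100 bp (37.1%, 30.7 to 43.7), against 36.5% of regions with a footprint in 1 library and 7.61% of those with footprints in both. At the other end, 27 members were 300 bp or more (12.1%, 8.10 to 17.1), against 5.46% and 4.77%. Read by width, the footprint-free share was 5.38% below 60 bp and 3.05% from 60 to 100 bp. It was lowest, at 0.364%, from 150 to 200 bp, and 2.12% at 300 bp or more. Median width was 120 bp in replicate 1 and 196 bp in replicate 2 for members, against 117 and 194 bp for regions with a footprint in 1 library and 180 and 199 bp for those with footprints in both. Set against all footprinted regions, the ratio of the medians, 0.826 ± 0.225 (SD, n = 2 libraries), differed from 1 by less than the spread between libraries. A short row offers fewer bases in which a footprint could fall, and the part of width was not tested.

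Footprint-free regions were crowded among other regions. Another replicate 1 region lay within 200 bp of 94 members (42.0%, 35.4 to 48.7). The share was 19.04% for regions with a footprint in 1 library and 5.32% for regions with footprints in both. In the lowest height class the shares were 41.9%, 16.1% and 4.46%, so the order was the same among low regions. The nearby region was the taller one for 76 of the 94 members, by a median ratio of 1.47. Members with such a neighbour had heights like the others, with medians of 0.434 and 0.535 against 0.459 and 0.519, and were wider in replicate 1 (198 against 100.5 bp). In all, 9 members overlapped another member, and 20 shared 9 rows of replicate 2, so members are not all independent of each other.

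The share without a footprint rose with the number of other regions within 5000 bp. Counted in the list of replicate 1, it was 0.294% with no other region, 0.710% with 1, 2.25% with 2 to 3, and 3.85% with 4 to 6. It then reached 13.7% with 7 to 9 and 20% with 10 or more, where 27 of 135 regions were members. Counted in the list of replicate 2, the same classes gave 0.313%, 0.628%, 1.40%, 3.49%, 6.77% and 16.7%. The gradient thus appeared in both lists, which were read for the same members. Regions in the densest class were also low, with a median height of 0.402 in replicate 1 against 1.01 where no other region was near. Within the lowest height class the share was 1.24% with no other region and 26.7% with 10 or more in the list of replicate 1. The highest value there, 30.6%, was at 7 to 9. Height differed with density inside that class too. Its median was 0.569 with no other region and 0.327 with 10 or more in replicate 1, and 0.606 and 0.328 in replicate 2. The part of height in the gradient was not tested. In the list of replicate 2 the share in the lowest class was 1.26% with none and 26.8% with 10 or more. In the upper 4 height classes together the shares were far smaller. In the list of replicate 1 they were 0.0155% with none, 1.11% with 4 to 6 and 1.19% with 7 to 9. With 10 or more, 0 of 34 regions were members, with an upper limit of 10.3%. The list of replicate 2 gave 0.0266%, 1.28%, 0 of 198 and 1 of 82.

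**Figure D3:**
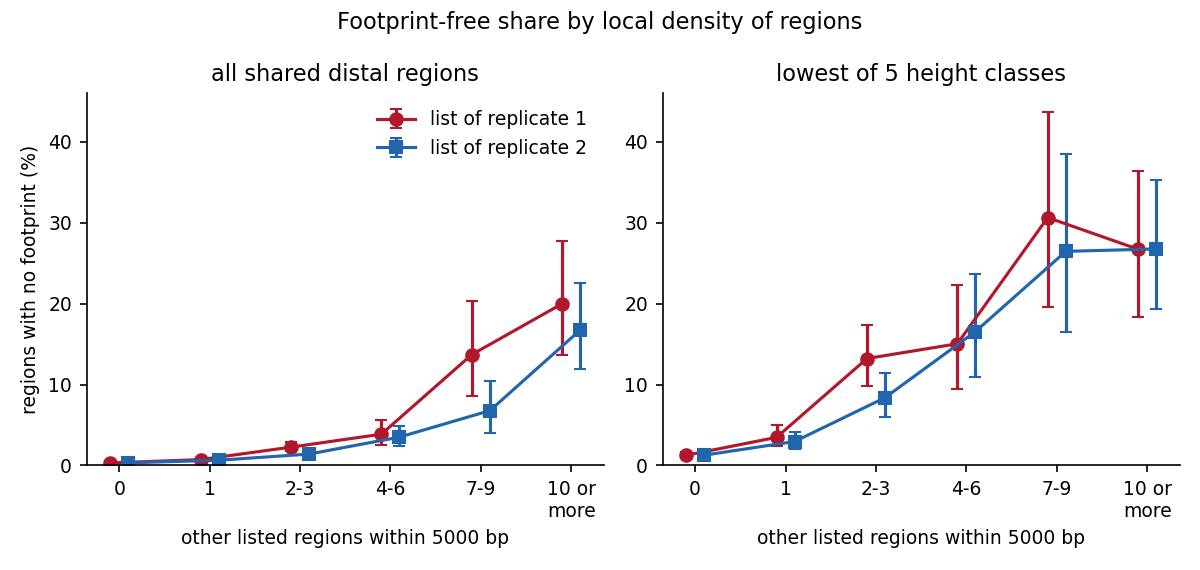
Percentage of shared distal regions without a footprint by the number of other listed regions within 5000 bp, for all regions (left) and the lowest height class (right), counted in the lists of replicates 1 and 2. Points show the share and bars the 95% exact binomial interval, and the share with 10 or more others is 20% and 16.7% in the left panel.

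At the other extreme, 43 members had no other region within 5000 bp in either list. The highest of these lay in an intron of Kidins220, a scaffold protein of neurotrophin signalling, with heights of 0.918 and 0.983. The next, near the kinase gene Syk, had 0.798 and 0.781. Isolated members in introns of Amph, which encodes a synaptic protein of endocytosis, and of Ephb1, a receptor of axon guidance, had heights between 0.622 and 0.698 in both libraries. These 4 were named after their values were seen.

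In crowded stretches members came in clusters. Joined over gaps of at most 5000 bp, 61 members fell into 22 clusters of 2 or more. The largest held 6 members at chr2:178120870-178131151 in introns of Phactr3, a regulator of protein phosphatase 1 and actin. These 6 were among the lowest members, with heights of 0.151 to 0.207 in replicate 1 and 0.120 to 0.218 in replicate 2. They made up 30% of the 20 shared distal regions in the gene's locus, defined as the body plus 10000 bp on each side.

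A cluster of 4 members at chr10:81433581-81435220 lay in an intron of Nfic, which encodes a nuclear factor I protein. It included the widest members, rows of 1260 and 1080 bp that overlapped each other, and heights of its 4 rows were 0.402 to 0.597 in replicate 1 and 0.502 to 0.743 in replicate 2. Of the 16 shared distal regions at Nfic, 4 were members. At Otx1, a homeobox gene of forebrain development, 4 of 12 regions were members, 3 of them in exon sequence outside the coding part. Their heights were 0.377 to 0.497 and 0.453 to 0.737. The Ttc12 locus held 4 of 8, among them the lowest of all in replicate 1, at 0.0943. These genes were named for holding the most members, so high shares there follow from the choice. Over all coding gene loci, members were 140 of 16226 shared distal regions (0.863%), and 138 of 20807 coding genes held one. The 20807 were counted whether or not a locus held any shared distal region.

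The other genes with most members held 3 each. Grid1, a delta glutamate receptor, had 3 of 13 shared distal regions, Zbtb16, a zinc finger transcription factor, 3 of 10, and B4galt5, a galactosyltransferase, 3 of 8. Tchh, a structural protein of hair follicles, had 3 of 8, all in coding exon sequence. Shd held 3 of 6, and its neighbours Ebi3, a cytokine subunit, and Yju2, a splicing factor, held 3 of 13 each. The loci of these neighbours overlap, so the same 3 members are counted at all of them.

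In the main setting, members lay closer to transcript starts than other distal regions. A start lay within 2000 bp of 55 members (24.6%, 19.1 to 30.7), against 13.5% (11.6 to 15.5) of regions with a footprint in 1 library and 9.15% (8.79 to 9.51) of those with footprints in both. In the lowest height class the shares were 21.5%, 10.5% and 5.71%. With the longer region lists the members' share was 11.0%, and with classes from replicate 1 alone it was 14.4%. Footprinted regions were not counted in those settings. Median distance to a start was 7722 bp for members, against 14724 and 11649 bp. Every start was over 50000 bp away for 11.6% of members (7.72 to 16.5), against 17.6% and 12.4%. In the lowest height class that held for 13.4%, against 22.4% and 23.7%. The distance limit of the rule was 1000 bp, and 14 members (6.25%) lay within 1100 bp, against 2.57% and 1.15%. For 10 members (4.46%) the tallest overlapping row of replicate 2 reached within 1000 bp of a start, against 2.73% and 0.416%, so some members were the outer part of a wider region in replicate 2.

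The 55 members with a start within 2000 bp included the following examples. Jag1, a Notch ligand, had one 1764 bp away with heights of 0.823 and 1.23. Foxo3, a forkhead factor, had a coding exon member of 63 bp at 1289 bp with 0.497 and 1.06, overlapping a replicate 2 row of 1000 bp. Pcdh10, a protocadherin, and Twist1, a mesodermal factor, had members at 1646 and 1505 bp, with 0.830 and 1.03 and with 0.308 and 0.350. These 4 were named after their values were seen.

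By annotation, 114 members were intergenic (50.9%), 87 intronic (38.8%), 16 in coding exons (7.14%) and 7 in other exons (3.13%). The coding exon interval of 4.14 to 11.3% lay above the 3.79% of regions with footprints in both libraries and included the 4.74% of regions with a footprint in 1 library. With distal regions taken from 2500 bp, the members' coding exon share was 3.75%, so the share depended on the distance limit. Among regions with no other within 200 bp it was 4.62% (1.71 to 9.78), an interval that included the 3.69% with footprints in both libraries. Intergenic and intronic shares were 47.7% and 44.5% in the class with footprints in both libraries, and both values lay within the members' intervals.

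**Figure D4:**
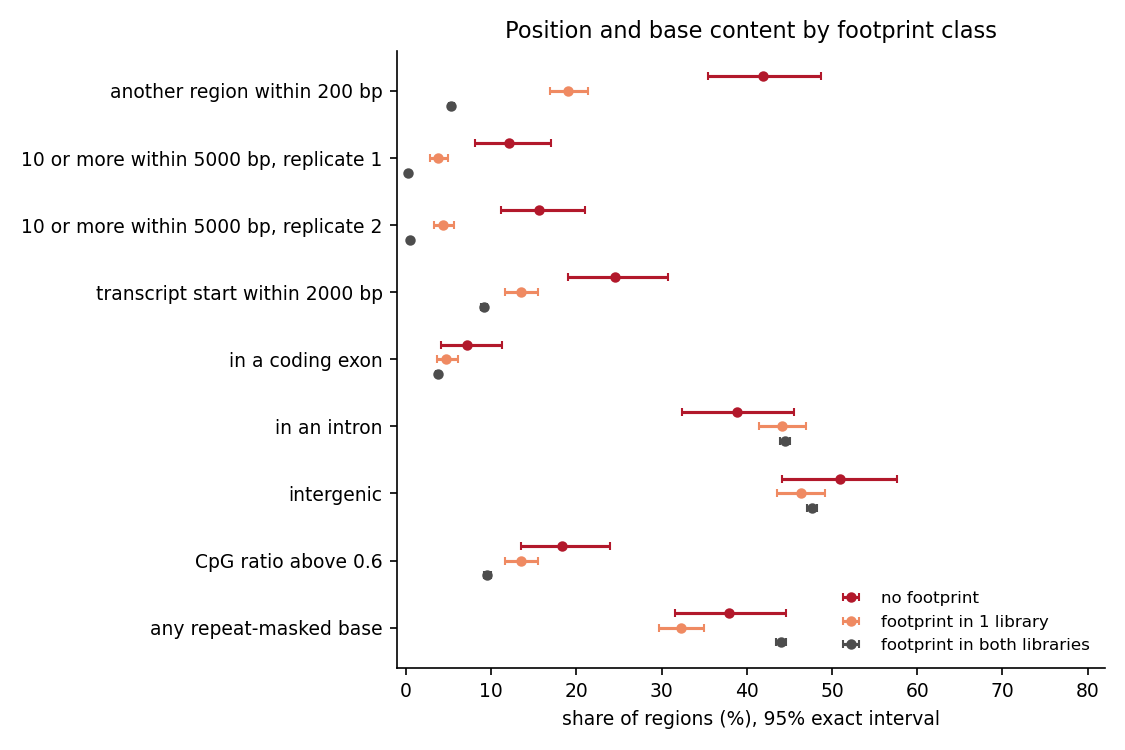
Share of regions with no footprint, a footprint in 1 library and footprints in both, top to bottom within each feature, with 95% exact binomial intervals. Another region within 200 bp was found for 42.0%, 19.04% and 5.32%, and a transcript start within 2000 bp for 24.6%, 13.5% and 9.15%.

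Base composition was similar at the median, and CpG-rich members depended on how the regions were chosen. Median GC content was 52.4% for members, 53.7% for regions with a footprint in 1 library and 52.4% for those with footprints in both. The ratio of observed to expected CpG was above 0.6, a level typical of CpG islands, in 41 members (18.3%, 13.5 to 24), against 13.5% and 9.58%. With the longer region lists the members' share was 8.71%, and with distal regions taken from 500 bp it was 33.1%. Proximity to starts moved with this ratio and its part was not tested. Repeat-masked bases occurred in 85 members (37.9%), against 32.3% and 44.0%. The central 28 bases recurred elsewhere on chromosomes 1 to 19 for 8 members (3.57%, 1.55 to 6.92), against 1.77% and 1.63%, values inside the members' interval. All 8 were in the lowest height class.

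No footprint-free region held the CTCF motif. CTCF, the zinc finger protein of insulators and loop anchors, binds a long motif. It matched 0 of 224 members, which allows a share of up to 1.34%, against 8 of 1245 regions with a footprint in 1 library (0.643%) and 3765 of 24755 with footprints in both (15.2%, 14.8 to 15.7). In the lowest height class it matched 0 of 186 members, which allows up to 1.61%, against 201 of 4257 regions with footprints in both (4.72%, 4.10 to 5.40). CTCF was thus rare wherever at least 1 library had no footprint. As background, CTCF is known for leaving a clear footprint where it is bound, and the classes were chosen by footprints.

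Motifs were exact consensus letters searched on both strands, and a match is a description, not a bound site. The single NFI site TTGGCA, of nuclear factor I proteins that act in neuronal and glial maturation, was in 25 members (11.2%, 7.35 to 16.0), against 18.4% (16.3 to 20.7) and 20.6% (20.1 to 21.1) of regions with a footprint in 1 library and in both. In the lowest height class the shares were 10.8%, 19.1% and 23.7%. Per 100 kb of sequence, members held 70.8 matches, against 146 and 134. Members were thus lowest per base too, while the footprinted classes changed places. The full NFI site, a palindrome of the same core, was in no member and in 0.158% of regions with footprints in both.

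Motifs of neuronal factors were less clearly placed. The NEUROD E-box CAGATGG, bound by proneural basic helix-loop-helix factors, was in 16 members (7.14%, 4.14 to 11.3), against 9.64% and 11.4%. In the lowest height class it was in 6.99% of members, with an upper limit of 11.7%, against 8.48% and 13.6%. The E-box CAGCTG was in 33 members (14.7%, 10.4 to 20.1), against 16.6% and 18.6%. The AP-1 site TGANTCA, bound by FOS and JUN dimers after neuronal activity, was in 6 members (2.68%, 0.989 to 5.74), against 4.82% and 5.39%. For CAGCTG and AP-1, the members' intervals included the value of regions with footprints in both libraries.

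Other motifs were rare or similar. TCF and LEF sites were in 8.93% of members, against 6.83% and 11.0%, GATA sites in 3.57%, against 3.29% and 4.86%, and TEAD sites in 3.57%, against 3.61% and 3.36%. Homeobox sites, TAATTA, were in 4.02% (1.85 to 7.49), against 2.01% and 3.24%. STAT sites were in 4 members (1.79%), against 0.643% and 0.715%, and SRF sites in 3 (1.34%), against 0.241% and 0.881%, and the members' intervals for both included the value of regions with footprints in both libraries. MEF2, CRE, EGR, ETS, NRF1 and PU.1 motifs were in 0 of 224 members. Each was in at most 1.23% of regions with footprints in both, so up to 1.34% remained possible for members. Of the members, 119 held none of the 27 motifs, and at least 1 was in 46.9%, against 52.4% and 68.0%.

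**Figure D5:**
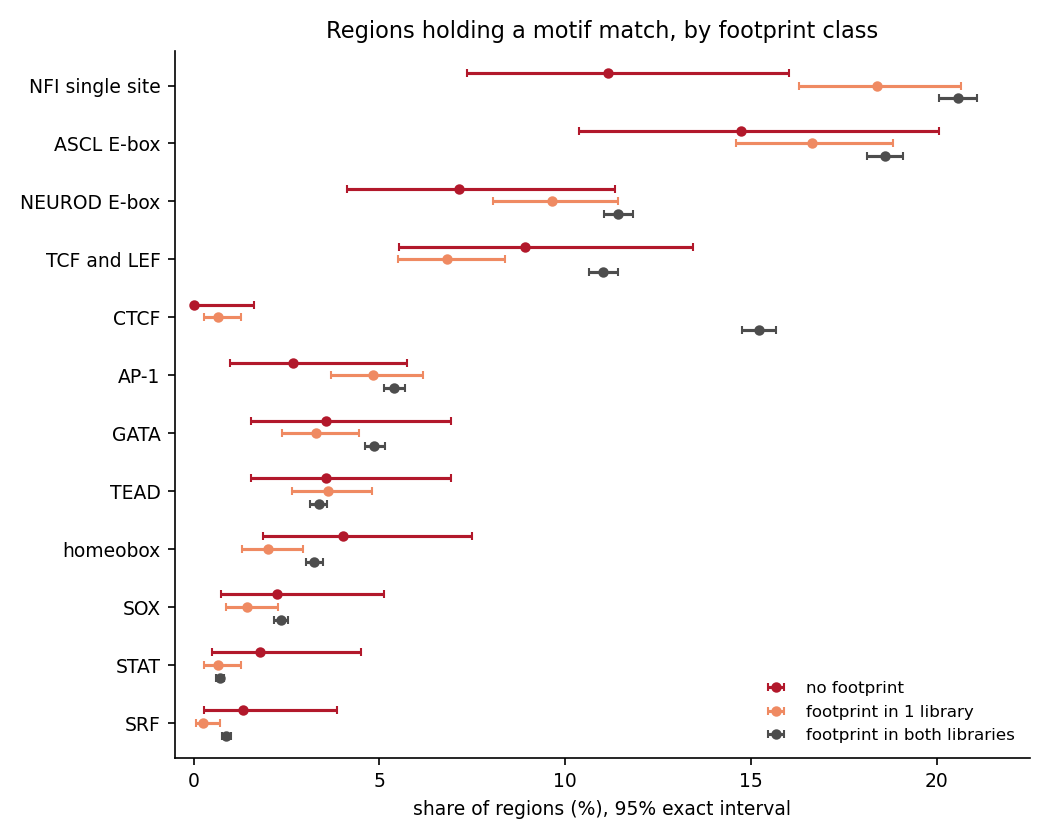
Share of regions holding a match to 12 consensus motifs in the classes with no footprint, a footprint in 1 library and footprints in both, top to bottom within each motif, with 95% exact binomial intervals. CTCF matches 0%, 0.643% and 15.2%, and the single NFI site 11.2%, 18.4% and 20.6%.

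Loci of genes that mark hippocampal and other cell types held few members. Together, 18 lists with 232 annotated autosomal genes held 3 members among 490 shared distal regions (0.612%, 0.126 to 1.78), close to the 0.863% of all coding gene loci. The 3 lay at Adarb2 of interneurons, Gria1, an AMPA receptor subunit, and Efna5, an ephrin ligand, with 1 member each. The Efna5 member was 1324 bp from a start, with heights of 0.408 and 0.716, and the Adarb2 member had 0.339 and 0.382. Pan-neuronal genes held 0 of 29, dentate granule cell genes 0 of 25, astrocyte genes 0 of 28 and immediate early genes 0 of 24. At these numbers an upper limit of the exact interval was between 11.9 and 14.2%, so a share like that of all loci would not have been detectable. As a look at the tissue, the 10 dentate granule cell genes held 25 shared distal regions, the 8 genes of CA3 pyramidal cells 15 and the 7 of CA1 pyramidal cells 9. Among other cell types, the 13 microglia genes held 19, the 13 hepatocyte genes 10 and the 12 muscle genes 8. Gene length was not taken into account, and these counts do not check the tissue label.

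Members were found on all 19 autosomes. Their share ranged from 0.301% of shared distal regions on chromosome 5 (0.0978 to 0.701) to 1.57% on chromosome 18 (0.882 to 2.58), where 15 lay. The remaining chromosomes fell between these values.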

How the data were processed

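Region lists, footprint lists and per-base cut-rate significance from DNase-seq were analysed for 2 libraries of 1 group. Per the notes deposited with each sample, regions were derived from filtered alignments on mm10 and a second, unnamed source, and footprints from alignments, the cut-rate significance and unnamed sources. Not given in the sources used here are the aligner, caller, thresholds and depth. The region height is a signal value the authors deposited. The deposited footprint lists give each row the same p-value, 0.01, taken as the authors' limit, and the deposited cut-rate false discovery rates are adjusted p-values listed up to 0.05.

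The shorter region list of each library was used, and regions were shared at 1 bp of overlap. Replicate 2 height, width, per-base values, footprint distance and number of others within 5000 bp were read at the tallest overlapping replicate 2 row. Starts, exons and genes were from GENCODE M21 and sequence from GRCm38. Heights were ranked per library, and 5 equal height classes follow the mean rank. Shares carry 95% Clopper-Pearson intervals, and a count of 0 a limit of 3 counts. No p-values were computed. Overlaps, distances, motif searches and intervals were tested on simulated data. Python 3.11.15, NumPy 2.4.6, pandas 2.3.3, SciPy 1.17.1 and matplotlib 3.10.9 were used.

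Members and lists were chosen with earlier results of these data known. Named genes were those nearest the 10 highest members, the 10 with most members per locus, ties included, and up to 3 per list, and others are marked as named after their values were seen. The footprinted region shown was the highest outside exons whose central 28 bases occur once, also chosen after seeing the values, because the first by rank recurs elsewhere and the next lies in an exon.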

Additional observations from a re-analysis of the deposited data

How the results depend on the processing

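The CTCF share of members was 0.975% with the longer lists, 0.282 to 0.485% with classes from 1 library alone and 0% with reciprocal overlap, at 500 bp, with footprints wholly inside the row and in central windows of 150 bp. Alternatives that only remove members give 0% by construction. The count of members, 224, was 1436 with the longer lists, 121 with 50% reciprocal overlap, 381 and 160 at distal distances of 500 and 2500 bp, 258 with footprints wholly inside the row, 145 with footprints within 50 bp counted, and 4 in the taller 50% of regions. With classes from 1 library alone it was 710 to 1031, the height ratio 0.495 to 0.510 and the GC difference (members minus footprinted regions) 0.489 to 1.17 percentage points. Masked regions were 30.4 to 38.2%, starts within 2000 bp 14.4 to 19.01% and another region within 200 bp 26.0 to 33.9%. Members among regions at list genes (list loci) were 3.27 to 4.08%. The 4.08% was with classes from replicate 1 alone, where 1031 of all 26224 shared distal regions were members. The 3.27% was with classes from replicate 2 alone, where 710 regions were members. Their share of all shared distal regions was not computed, so the 3.27% has no background beside it.

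Agreement is the share of regions without a footprint in one library that also had none in the named one. With the longer lists it was 38.3% in replicate 1, the height ratio was 0.447, the GC difference -0.952, starts within 2000 bp 11.0% and another region within 200 bp 18.1%. With reciprocal overlap, agreement in replicate 2 was 28.01%, the GC difference 0.331, starts 19.01% and list loci 0%. At 500 bp, agreement was 27.1% in replicate 2 and 38.6% in replicate 1, the height ratio 0.528, the width ratio 1.03, the GC difference 1.25 and starts 55.6%, since nearer regions enter. At 2500 bp agreement in replicate 2 was 18.8% and the height ratio 0.394, and starts within 2000 bp are 0 by construction. Footprints wholly inside gave a GC difference of 0.185, where the main value was -0.0761. Counting those within 50 bp gave a width ratio of 1.12 and neighbours for 55.2%. The 4 members of the taller 50% gave agreement of 8.16% and 15.4%, a height ratio of 0.821, a width ratio of 1.15, a GC difference of 4.86, masked bases in 50%, starts in 75%, neighbours in 50% and list loci 0%. All bases passed a false discovery rate of 0.05 in 100% of members, against 58.9% at 0.001.

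Added after seeing the data, regions with no other within 200 bp gave 130 members, agreement of 17.0% and 25.7% and masked bases in 29.2%. The lowest height class gave agreement of 26.8% and 38.8%, a height ratio of 0.722 and a GC difference of 0.924. List loci were 3.37%, beside 3.55% of all regions in that class. Neighbours were found for 20.5% within 100 bp and 63.4% within 500 bp. Of 105 values for single motifs, position classes and the CpG ratio, 80 stayed within their interval. Those outside it included the NFI site with the longer lists (16.2%), intergenic members at 500 and 2500 bp (36.2 and 60%) and members with 10 or more others within 5000 bp, 12.1% in the main setting and 4.74% with the longer lists. The cause of each change was not tested except where the alternative sets it. No paired analysis was possible because there is 1 group. No depth is given, and a region of few cuts may lack a footprint only because too few cuts were counted, which was not tested.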
